A study of Mus musculus with 12 samples.

Results

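The effect of the Chd7 deletion on bone marrow mesenchymal stem cells (MSCs) was compared between osteogenic and adipogenic medium, gene by gene, over 12 RNA-seq libraries with 3 in each of 4 groups. CHD7 is a chromatin remodeler that uses ATP to move nucleosomes, and the study asked how its loss shifts MSCs between the bone and the fat lineage. Cells came from the marrow of femurs, tibiae and humeri of C57BL/6 mice 4 weeks old and were used at passage 3. WT denotes Chd7fl/fl mice and KO denotes Prx1-cre;Chd7fl/fl mice, so both genotypes carried the floxed alleles and KO alone carried the Cre, which is driven by a promoter of early limb mesenchyme and removes exon 2 of Chd7. Osteo libraries were made after 5 days in medium with dexamethasone at 10 nM, β-glycerophosphate at 10 mM and ascorbic acid at 50 µM. Adipo libraries were made after 5 days in medium with dexamethasone at 1 µM, isobutylmethylxanthine at 0.5 µM and insulin at 10 µg/ml. The quantity examined was the difference of differences, the KO minus WT difference in Adipo minus the KO minus WT difference in Osteo, on log2(FPKM + 1), where FPKM is a fragment count corrected for transcript length and library size. It was computed for 12871 of 54532 genes, those that reached 1 FPKM in 3 or more of the 12 libraries. All fold differences below are on this log2(FPKM + 1) scale, which understates the change of genes near 1 FPKM.

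Both media contain dexamethasone, a synthetic glucocorticoid, at different doses. A glucocorticoid enters the cell, binds its receptor, and the complex binds DNA and switches on target genes such as Fkbp5, Tsc22d3 and Per1 within hours. It is also used to set the circadian clock of cultured cells, in which the activators ARNTL and CLOCK drive Per, Cry and Nr1d genes whose products shut the activators off again. Isobutylmethylxanthine raises cAMP by blocking its breakdown, insulin adds a growth signal for fat cells, and ascorbic acid with β-glycerophosphate allows collagen processing and mineral deposition.

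The label of the deletion was checked first. Chd7 was at 2.64, 2.67 and 2.77 FPKM in WT_Osteo, 2.03, 2.35 and 2.28 in KO_Osteo, 2.26, 1.81 and 2.23 in WT_Adipo, and 2.03, 2.35 and 2.48 in KO_Adipo. The KO libraries were all below the WT libraries in Osteo and overlapped with them in Adipo. The KO minus WT difference of Chd7 was -0.20 in Osteo and 0.09 in Adipo, and neither passed limma's test (adjusted p 0.16 and 0.428). A gene total is a weak check because exon 2 alone is removed, so KO and WT below mean libraries labelled KO and WT. Every direction follows these labels: exchanged genotype labels in 1 medium would turn every sign there, and this was not tested. The difference of differences of Chd7 was 0.28 ± 0.111 (SE; limma adjusted p 0.0987).

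The libraries held between 17493791 and 21087286 fragments, at which 3 fragments on a transcript of 1 kb correspond to 0.143 to 0.185 FPKM. The second WT_Adipo library stood apart from its group: its mean correlation over log2(FPKM + 1) was 0.9409 with the other WT_Adipo libraries, 0.9835 with KO_Osteo and 0.9809 with WT_Osteo. Counts of list members that moved by more than 1.5 times without it are given both ways. Markers of mesenchymal stroma were present (summed FPKM of 10 markers 505 to 635), and those of macrophages were far more abundant. The largest part of the stromal sum was Itgb1, at 317 to 412 FPKM, and Pdgfrb was at 39.9 to 87.1. Thy1, which encodes the CD90 that the study stained to identify its MSCs, was at 0.206 to 1.03 FPKM. The sum of 13 macrophage markers was 14316 to 14774 FPKM in WT_Osteo, 15790 to 16252 in KO_Osteo, 9641 to 19216 in WT_Adipo (9641 in the second library) and 7872 to 9393 in KO_Adipo, and Lyz2 ranked between 1 and 5 among all genes. All 6 markers of mature adipocytes stayed below 1 FPKM, and so did Dmp1 and Phex among 7 osteoblast markers. In bulk RNA, fewer cells of a type and less RNA per cell cannot be told apart.

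Of the 12871 genes, 2630 (20.4%) passed limma's test of the difference of differences, 1397 (10.9%) because KO minus WT was more positive in Adipo than in Osteo and 1233 (9.58%) because it was more negative. The difference was at least 2-fold for 485 of them, and its median size among the genes that passed was 0.55 with a median SE of 0.127 over all genes. In Osteo, whether or not they also differed in Adipo, 1170 genes (9.09%) differed between the genotypes, 636 (4.94%) higher and 534 (4.15%) lower in KO. In Adipo 4276 genes (33.2%) differed, 2153 (16.7%) higher and 2123 (16.5%) lower. When each library was scaled to the same sum of FPKM, the median of all genes moved by 0.152 in the difference of differences, and the split became 1716 more positive and 564 more negative. Without the second WT_Adipo library 5434 genes (42.2%) passed, 2539 (19.7%) more positive and 2895 (22.5%) more negative, and 2627 of the 2630 were among them.

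Genes that passed were sorted by what they did in each medium. Of the 643 genes called in both media, 299 (2.32% of those tested) had opposite signs and all 299 passed the difference of differences, and 344 had the same sign, of which 46 (0.357% of those tested) passed it. The 299 reversed genes consisted of 151 (1.17%) that were lower in KO in Osteo and higher in KO in Adipo, and 148 (1.15%) with the opposite pattern. Their effects were of like size in both media, with medians of -0.43 in Osteo and 0.46 in Adipo for the 151 genes, and 0.45 and -0.46 for the 148. The effect in Adipo was the larger for 149 of 299. A further 935 genes (7.26%) were higher and 810 (6.29%) lower in KO in Adipo alone, and 151 (1.17%) were higher and 155 (1.2%) lower in KO in Osteo alone. The remaining 234 (1.82%) passed the difference of differences and neither medium. Without the second WT_Adipo library 880 genes reversed, and 287 of the 299 were among them.

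**Figure D1:**
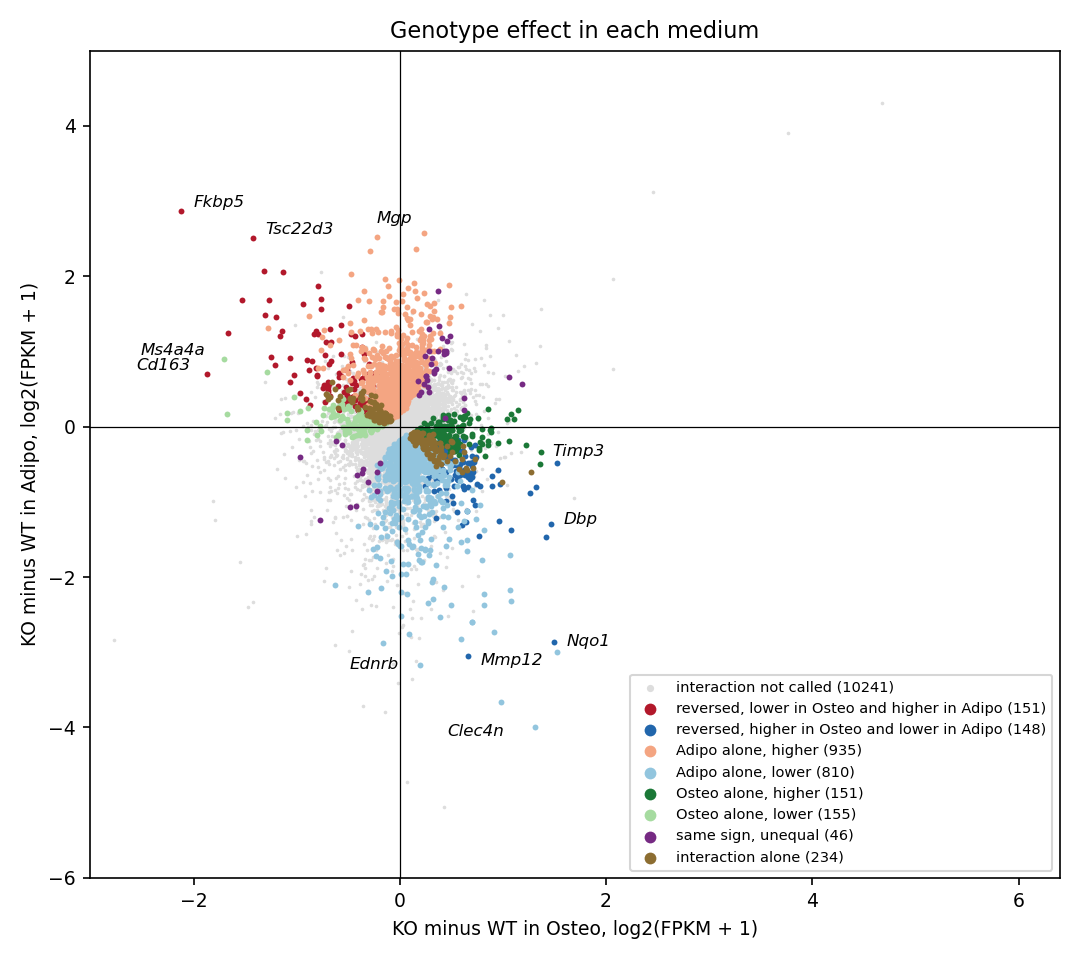
KO minus WT difference in Osteo (x axis) against that in Adipo (y axis), both on log2(FPKM + 1), for each of the 12871 genes, coloured by class. Reversed genes lie in the upper left and lower right quadrants, from Fkbp5 (-2.13, 2.87) to Nqo1 (1.49, -2.87), and genes of 1 medium lie along the axes.

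Here "alone" means called in that medium and not called in the other, where a gene may still differ. The KO and WT libraries did not overlap in Osteo for 895 of the 1745 genes of Adipo alone, against 44.3% of all genes tested. They did not overlap in Adipo for 45 of the 306 genes of Osteo alone, against 38.6%. These classes leave out genes that passed in the other medium, so the shares over all genes are not a like comparison. For 1389 of the 1745 genes of Adipo alone, the 95% confidence interval of the difference in Osteo lay within -0.5 to 0.5, and for 262 of the 306 genes of Osteo alone that of the difference in Adipo did. A further 1888 genes passed in Adipo and not in Osteo, and 221 in Osteo and not in Adipo, without passing the difference of differences. They are not counted here as depending on the medium.

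The reversed genes had crossed levels. With exchanged labels in 1 medium the 299 would have the same sign in both media and the 344 opposite signs, and the Chd7 totals do not check the labels in Adipo. The 6 of WT_Osteo and KO_Adipo did not overlap with the 6 of KO_Osteo and WT_Adipo for 204 of the 299 reversed genes, 111 of the 151 and 93 of the 148, against 546 of all genes tested (4.24%). The KO and WT libraries were apart in both media, in opposite directions, for 288 of the 299 (8.65% of all genes). The rule that chose the 299, passing in both media with opposite signs, favours such separation. The shares over all genes are therefore not a like comparison for the 288 or the 204. Over all genes the genotypes did not overlap for 44.3% in Osteo, 38.6% in Adipo and 19.2% in both. Both effects were 2-fold or more for 15 genes. The 11 that were lower in Osteo and higher in Adipo were Fkbp5, Tsc22d3, Klhl6, Sult1a1, Zbtb16, Klf9, Per1, Chil3, Cep85, Gm6093 and Gm807, and the 4 of the opposite pattern were Nqo1, Dbp, Cxcl14 and Clec7a.

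**Figure D2:**
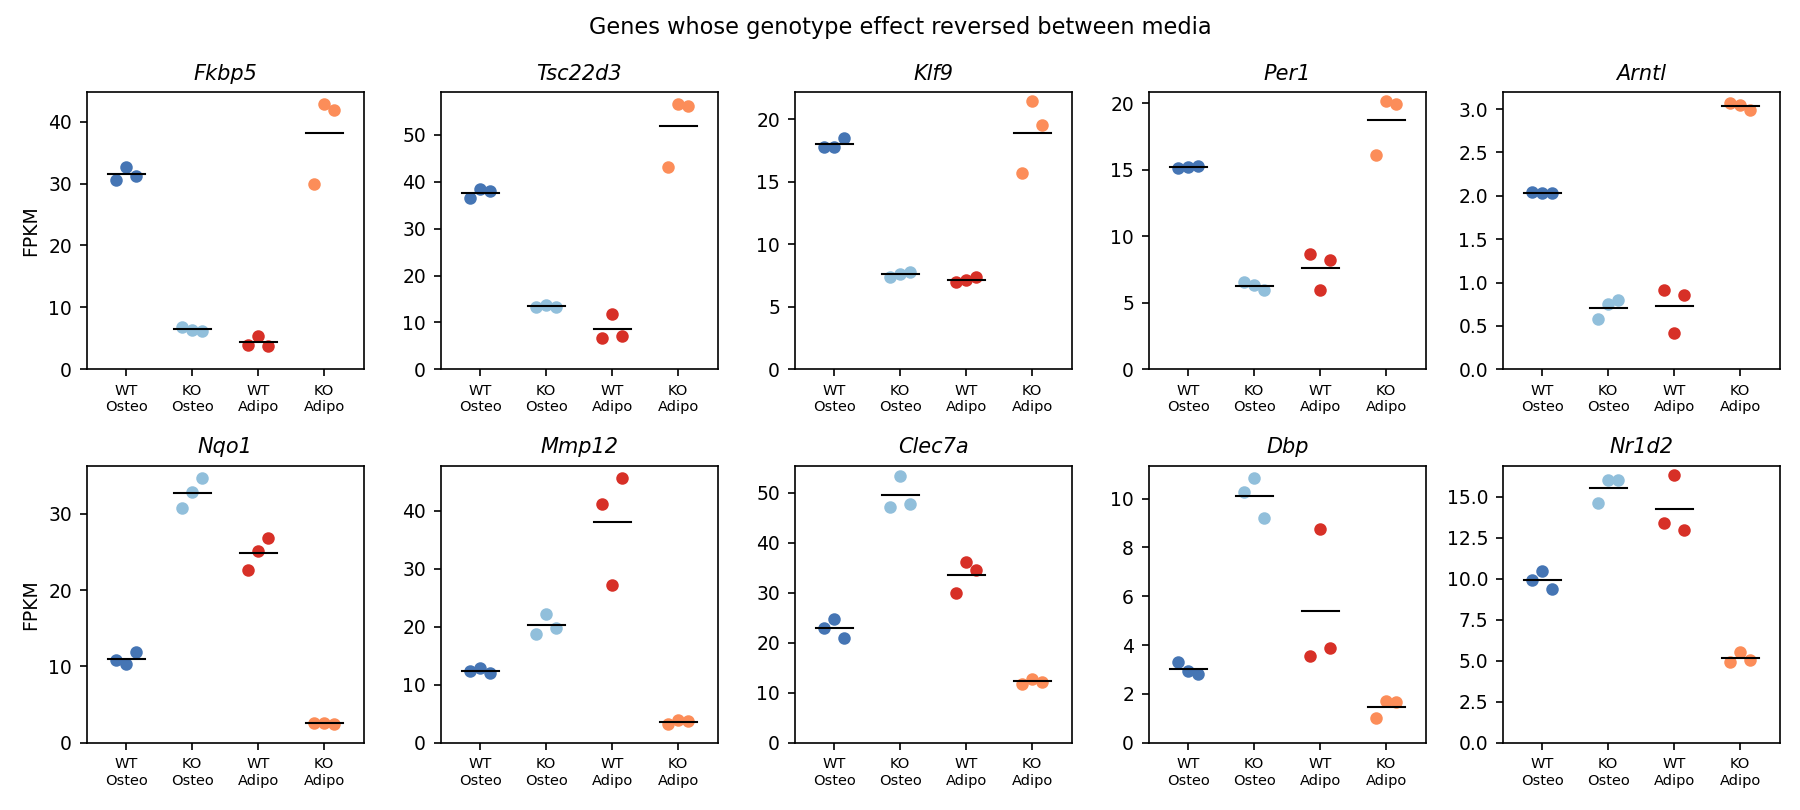
FPKM of 10 reversed genes in the 12 libraries (points) with the group mean (black line), in the order WT_Osteo, KO_Osteo, WT_Adipo, KO_Adipo; each axis starts at 0. Fkbp5, Tsc22d3, Klf9, Per1 and Arntl were high in WT_Osteo and KO_Adipo, and Nqo1, Mmp12, Clec7a, Dbp and Nr1d2 were high in KO_Osteo and WT_Adipo.

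The glucocorticoid-induced genes had the highest median difference of differences of the lists, 0.80. Of 23 tested, 14 had a more positive and 1 a more negative difference in Adipo (65.2% against 20.4% of all genes). The median KO minus WT difference was -0.29 in Osteo and 0.72 in Adipo, against -0.01 and -0.01 over all genes. In 7 of them the effect reversed from lower in Osteo to higher in Adipo: Fkbp5, Tsc22d3, Zbtb16, Sult1a1, Klf9, Per1 and Dusp1. A further 6 were higher in KO in Adipo alone, Angptl4 was lower in Adipo alone and Pik3r1 was lower in Osteo alone. Without the second WT_Adipo library 15 were more positive and 3 more negative.

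Fkbp5, which encodes a co-chaperone that holds the glucocorticoid receptor in its low affinity state, was at 30.6, 32.6 and 31.3 FPKM in WT_Osteo, 6.90, 6.29 and 6.19 in KO_Osteo, 3.91, 5.46 and 3.69 in WT_Adipo, and 29.9, 42.8 and 41.9 in KO_Adipo. No library of WT_Osteo or KO_Adipo came near any of KO_Osteo or WT_Adipo. It fell by 2.13 in Osteo and rose by 2.87 in Adipo, a difference of 5.00 ± 0.203 (SE; limma adjusted p 9.85e-07). Tsc22d3 encodes GILZ, a leucine zipper protein that mediates anti-inflammatory effects of glucocorticoids. It was at 36.4, 38.5 and 38.1 FPKM in WT_Osteo, 13.3, 13.7 and 13.2 in KO_Osteo, 6.74, 11.7 and 7.08 in WT_Adipo, and 43.1, 56.6 and 56.1 in KO_Adipo. The groups did not overlap in either medium, and the difference of differences was 3.93 (limma adjusted p 7.72e-06). Zbtb16, a zinc finger repressor that glucocorticoids switch on, was nearly off in KO_Osteo (0.284, 0.408 and 0.353 FPKM) and in WT_Adipo (0.127, 0.298 and 0.0234). It reached 2.02, 1.77 and 2.09 in WT_Osteo and 2.12, 5.16 and 4.59 in KO_Adipo. Its difference of differences was 3.19 (limma adjusted p 0.000117).

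Klf9, a transcription factor induced directly by the receptor, fell by 1.15 in Osteo and rose by 1.28 in Adipo. Sult1a1, a sulfotransferase, fell by 1.53 and rose by 1.69, and Dusp1, a phosphatase that switches off MAP kinases, fell by 0.26 and rose by 0.54. The genes called in Adipo alone had smaller values in Osteo, where they did not pass. Sgk1, a kinase that controls ion channels, differed by -0.29 in Osteo and rose by 0.72 in Adipo, and the metallothionein Mt1 differed by -0.31 and rose by 1.30. Pdk4, which limits glucose oxidation, rose by 1.88, Ddit4, an inhibitor of mTOR, by 0.78, the thiamine transporter Slc19a2 by 0.81 and the cell cycle inhibitor Cdkn1a by 0.74. Txnip, which inhibits thioredoxin, was the exception to the reversal among the genes called in both media: it fell by 0.61 in Osteo and by 0.31 in Adipo, and the difference of differences did not pass (0.30, limma adjusted p 0.0502). Angptl4, which inhibits lipoprotein lipase, fell by 0.72 in Adipo.

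The receptor machinery itself moved less. Of 7 genes of the receptor complex and of steroid handling, 1 was more positive (Ncoa1, a coactivator, 0.39) and 4 more negative, among them the chaperones Hsp90ab1 (-0.50) and Ptges3 (-0.67). In all 71.4% of the 7 passed, against 20.4% of all genes, and their median difference was 0.12 in Osteo and -0.22 in Adipo. With libraries scaled to the same sum the counts were 1 and 1.

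Of 16 circadian clock genes tested, 13 passed the difference of differences, 5 more positive and 8 more negative (81.2% against 20.4% of all genes). With libraries scaled to the same sum the counts were 6 and 7, and without the second WT_Adipo library 5 and 9. Arntl, the activator of the core loop, was at 2.04, 2.03 and 2.03 FPKM in WT_Osteo, 0.585, 0.749 and 0.796 in KO_Osteo, 0.914, 0.413 and 0.861 in WT_Adipo, and 3.06, 3.05 and 2.99 in KO_Adipo. It fell by 0.83 in Osteo and rose by 1.24 in Adipo, with no overlap between genotypes in either medium. Its partner Clock rose by 0.24 in Adipo alone. Per1, a repressor of the loop that glucocorticoids also induce, moved with Arntl: 15.1, 15.2 and 15.3 FPKM in WT_Osteo, 6.54, 6.34 and 5.96 in KO_Osteo, 8.65, 5.95 and 8.22 in WT_Adipo, and 16.1, 20.1 and 19.9 in KO_Adipo. The difference of differences was 2.07 for Arntl and 2.36 for Per1 (limma adjusted p 2.39e-05 and 1.88e-05).

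The 8 more negative genes were opposite in sign to Arntl. Dbp, a PAR leucine zipper factor driven by the clock, was at 3.32, 2.92 and 2.82 FPKM in WT_Osteo, 10.3, 10.9 and 9.21 in KO_Osteo, 3.54, 8.73 and 3.90 in WT_Adipo, and 1.03, 1.70 and 1.65 in KO_Adipo. The second WT_Adipo library was closer to KO_Osteo than to the other WT_Adipo libraries, and the groups still did not overlap. Dbp rose by 1.47 in Osteo and fell by 1.30 in Adipo, a difference of -2.77 (limma adjusted p 0.000566), and of -2.42 without that library. Nr1d2, which encodes the repressor REV-ERBβ, was at 9.93, 10.5 and 9.37 FPKM in WT_Osteo, 14.7, 16.0 and 16.0 in KO_Osteo, 13.4, 16.4 and 12.998 in WT_Adipo, and 4.90, 5.52 and 5.07 in KO_Adipo. It rose by 0.60 and fell by 1.30. The same reversal was seen in Per3 (0.97 in Osteo and -0.76 in Adipo), Tef (0.66 and -0.80), Cry2 (0.41 and -0.57) and Per2 (0.62 and -0.33). Nr1d1 and Ciart rose in Osteo by 0.70 and 0.52 and did not pass in Adipo. Cry1 rose by 0.47 in Adipo alone. Nfil3, the repressor that competes with DBP and TEF for the D-box, passed the difference of differences alone (1.06), and in 12 of 21 alternative analyses. The list's median was 0.42 in Osteo and -0.14 in Adipo. Rora, Bhlhe40 and Bhlhe41 did not pass (0.31, -0.31 and -0.43).

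The promoters of the genes on which these patterns turn are shown because the clock and the glucocorticoid receptor act through known short elements. Sequences are from RefSeq on GRCm38.p6, the 250 bases before the start on the gene's strand, 5′ to 3′, with every match of a searched motif in capitals. Searched on both strands were the E-box CACGTG, bound by CLOCK and ARNTL, the D-box TTATGNAA, bound by DBP and TEF, the glucocorticoid response element, an inverted repeat, and 2 elements without a match in these windows, TGACGTCA for cAMP and the direct repeat of nuclear receptors. Fkbp5 (chr17:28486150-28486399, minus strand) and Per1 (chr11:69098699-69098948, plus strand) stand for the genes lower in Osteo and higher in Adipo. Per3 (chr4:151044666-151044915, minus strand) and Tef (chr15:81811164-81811413, plus strand) stand for the opposite pattern. Sgk1 (chr10:21993640-21993889, plus strand) and Mt1 (chr8:94178839-94179088, plus strand) are those genes of the glucocorticoid list that passed and hold the glucocorticoid element.
Fkbp5: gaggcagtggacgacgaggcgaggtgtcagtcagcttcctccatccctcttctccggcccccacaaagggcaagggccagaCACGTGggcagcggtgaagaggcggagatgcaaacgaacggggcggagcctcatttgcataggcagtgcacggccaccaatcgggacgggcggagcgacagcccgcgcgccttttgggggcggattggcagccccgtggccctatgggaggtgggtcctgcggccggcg
Per1: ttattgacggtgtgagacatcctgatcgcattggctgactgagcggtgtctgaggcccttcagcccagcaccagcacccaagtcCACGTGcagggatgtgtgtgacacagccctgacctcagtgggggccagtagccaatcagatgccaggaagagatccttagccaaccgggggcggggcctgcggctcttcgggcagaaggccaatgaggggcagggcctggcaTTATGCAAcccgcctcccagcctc
Per3: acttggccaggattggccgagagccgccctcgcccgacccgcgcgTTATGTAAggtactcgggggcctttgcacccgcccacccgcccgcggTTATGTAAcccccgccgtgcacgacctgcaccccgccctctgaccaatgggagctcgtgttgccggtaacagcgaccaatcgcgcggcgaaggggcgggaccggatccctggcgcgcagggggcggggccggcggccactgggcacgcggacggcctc
Tef: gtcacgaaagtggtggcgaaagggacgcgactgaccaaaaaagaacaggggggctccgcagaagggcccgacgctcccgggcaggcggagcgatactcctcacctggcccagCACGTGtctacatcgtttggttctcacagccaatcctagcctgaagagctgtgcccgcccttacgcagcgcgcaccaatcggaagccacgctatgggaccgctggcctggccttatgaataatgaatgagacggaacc
Sgk1: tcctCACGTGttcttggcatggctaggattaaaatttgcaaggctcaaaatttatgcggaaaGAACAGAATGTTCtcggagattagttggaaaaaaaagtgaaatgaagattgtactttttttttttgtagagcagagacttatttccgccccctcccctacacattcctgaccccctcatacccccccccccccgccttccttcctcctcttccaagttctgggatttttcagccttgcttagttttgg
Mt1: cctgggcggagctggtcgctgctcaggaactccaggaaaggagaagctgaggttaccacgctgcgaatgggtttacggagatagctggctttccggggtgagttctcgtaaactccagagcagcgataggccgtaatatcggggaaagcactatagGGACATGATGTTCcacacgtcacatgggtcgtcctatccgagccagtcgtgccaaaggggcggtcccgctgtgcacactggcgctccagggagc

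The E-box lay 169 bases before the start of Fkbp5, 166 before that of Per1 and 138 before that of Tef, and Per3 held a D-box at 205 and at 158 bases. An E-box was found in 5 of 14 clock genes with a promoter in RefSeq (35.7%) and in 6 of 20 glucocorticoid-induced genes (30.0%), against 12.2% of all genes tested. A D-box was found in 2 of the 14 clock genes (14.3%), against 2.43%. The glucocorticoid element was found in 3 of the 20 glucocorticoid-induced genes (15.0%; Mt1, Sgk1 and Txnip) and in 0.319% of all genes tested. Over all 32851 promoters the shares were 7.15% for the E-box, 3.38% for the D-box and 0.475% for the glucocorticoid element. Among all reversed genes lower in Osteo and higher in Adipo with a promoter, 14 of 120 held an E-box (11.7%) and 2 of 120 the glucocorticoid element (1.67%). These are matches of letters in a short window and not tested sites.

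Other genes lower in KO in Osteo and higher in KO in Adipo included genes of resident macrophages. Chil3, a chitinase-like lectin, fell by 1.31 in Osteo and rose by 1.48 in Adipo. The scavenger receptor Cd163, which glucocorticoids also induce in macrophages, was at 7.98, 8.18 and 7.46 FPKM in WT_Osteo, 1.44, 1.52 and 1.35 in KO_Osteo, 2.45, 1.30 and 2.84 in WT_Adipo, and 3.34, 4.53 and 4.41 in KO_Adipo. Its genotypes did not overlap in either medium, and it fell by 1.87 and rose by 0.70. Mertk, a receptor for the uptake of dying cells, fell by 0.70 and rose by 0.49, and the complement gene C1qb fell by 0.34 and rose by 0.36. Of 22 macrophage markers tested, 3 were more positive and 5 more negative (36.4% against 20.4% of all genes), and 8 and 11 without the second WT_Adipo library. Their medians with all libraries were -0.17 in Osteo and -0.56 in Adipo. Of the 13 markers summed above, 9 were lower in every KO_Osteo than in every WT_Osteo library, Lyz2 and C1qa were higher and 2 overlapped. The higher sum in KO_Osteo was that of Lyz2: without it the other 12 summed to 5359 to 5505 FPKM in WT_Osteo, 4733 to 5004 in KO_Osteo, 4184 to 5338 in WT_Adipo and 4027 to 4383 in KO_Adipo. In Adipo 6 markers were lower in every KO library, Mertk, C1qa and C1qb were higher and 4 overlapped. The part of macrophages in these results was not tested. Klhl6, a ubiquitin ligase adaptor of lymphoid cells, fell by 1.31 and rose by 2.07.

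Genes of BMP signalling were divided over the classes, with Id1, Id3 and Smad6 lower in KO in Osteo and higher in KO in Adipo. BMPs bind receptors that phosphorylate SMAD1, SMAD5 and SMAD9, and these switch on Id genes and the inhibitor Smad6. Of 17 genes of the pathway tested, 8 were more positive and 2 more negative (58.8% against 20.4% of all genes). The median was 0.05 in Osteo and 0.34 in Adipo. Id1, an inhibitor of differentiation, was at 47.9, 55.6 and 51.7 FPKM in WT_Osteo, 19.4, 23.1 and 21.2 in KO_Osteo, 23.4, 41.1 and 26.6 in WT_Adipo, and 50.8, 55.7 and 64.5 in KO_Adipo. The genotypes did not overlap, and Id1 fell by 1.25 in Osteo and rose by 0.92 in Adipo. Id3 fell by 0.59 and rose by 0.71, and Smad6 fell by 0.35 and rose by 0.66. In Adipo alone, the ligand Gdf6 rose by 2.36, the antagonist Nog by 1.51, Smad9 by 0.93 and Smad7 by 0.65. The antagonist Grem1 fell by 1.23 in Adipo alone. Id2 was lower in KO in both media, by 0.96 and 0.41.

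Genes of fat handling were divided. Of 23 genes for fatty acid uptake and lipid droplets, 4 were more positive and 5 more negative (39.1% against 20.4% of all genes). The counts were 8 and 6 without the second WT_Adipo library, and the medians with all libraries were 0.06 in Osteo and 0.08 in Adipo. The fatty acid carrier Fabp4 was at 33.7, 35.3 and 36.0 FPKM in WT_Osteo, 22.1, 22.5 and 19.8 in KO_Osteo, 12.7, 19.6 and 13.04 in WT_Adipo, and 39.1, 35.2 and 39.2 in KO_Adipo. It fell by 0.68 in Osteo and rose by 1.29 in Adipo, with no overlap of genotypes. Plin2, which coats lipid droplets, fell by 0.57 and rose by 0.97, the lipoprotein lipase Lpl fell by 0.91 and rose by 0.37, and the triglyceride lipase Pnpla2 fell by 0.51 and rose by 0.42. Fatty acid transporter Cd36 and triglyceride synthase Dgat2 fell in Adipo alone, by 1.35 and 0.89. Of 11 adipogenic regulators tested, 4 were more positive and 0 more negative (36.4% against 20.4% of all genes). Without the second WT_Adipo library the counts were 6 and 3. Pparg and Cebpa were not among the 4, and they differed by 0.68 and 0.58 in Adipo without passing. Their differences of differences were 0.75 and 0.64 (limma adjusted p 0.227 and 0.2). Without the second WT_Adipo library these were 1.13 and 0.91 (limma adjusted p 0.0051 and 0.0138). None of 2 mature adipocyte markers tested passed by limma or by voom with all libraries, and none had an unadjusted p under 0.05, and 1 passed without that library.

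Among osteoblast regulators, 4 of 13 were more positive and 0 more negative (30.8% against 20.4% of all genes), and 6 and 3 without the second WT_Adipo library. Runx2, the master regulator of osteoblasts, was at 3.70, 3.58 and 3.73 FPKM in WT_Osteo, 2.88, 2.60 and 2.86 in KO_Osteo, 3.10, 3.34 and 2.69 in WT_Adipo, and 3.54, 4.20 and 4.02 in KO_Adipo. It fell by 0.31 and rose by 0.28 with no overlap between genotypes, a difference of 0.59 (limma adjusted p 0.00344). Dlx5 and Foxc2 rose in Adipo alone by 0.62 and 0.75, Atf4 fell in Osteo alone by 0.19, and Sp7 did not pass (0.64, limma adjusted p 0.15).

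Of the genes higher in KO in Osteo and lower in KO in Adipo, Nqo1 had the largest difference of differences. It encodes a quinone reductase that NRF2, the sensor of oxidative stress, switches on. It was at 10.8, 10.3 and 11.9 FPKM in WT_Osteo, 30.8, 32.8 and 34.7 in KO_Osteo, 22.7, 25.1 and 26.9 in WT_Adipo, and 2.64, 2.60 and 2.41 in KO_Adipo. All 3 WT_Adipo libraries lay together, and the KO_Adipo libraries were the lowest of the 12. Nqo1 rose by 1.49 and fell by 2.87, a difference of -4.36 ± 0.103 (SE; limma adjusted p 1.4e-08). Mmp12, a macrophage elastase, rose by 0.66 and fell by 3.06, and Clec7a, the β-glucan receptor dectin-1, rose by 1.08 and fell by 1.38. The chemokine Cxcl14 was at 9.69, 11.7 and 13.3 FPKM in WT_Osteo, 30.1, 32.6 and 34.6 in KO_Osteo, 47.4, 14.4 and 51.4 in WT_Adipo, and 10.2, 11.1 and 12.6 in KO_Adipo. The second WT_Adipo library was just above KO_Adipo, and the difference of differences was -2.89 with it and -3.46 without it. Cxcl12, the stromal chemokine that retains hematopoietic cells, rose by 0.64 and fell by 0.39. Among Wnt genes the ligand Wnt4 rose by 0.54 and fell by 0.64 and the antagonist Sfrp4 rose by 0.66 and fell by 1.12, while its relative Sfrp2 moved the opposite way (-0.72 and 0.33). The retinoic acid synthase Aldh1a2 rose by 1.53 and fell by 0.48, whereas Cyp26b1, which degrades retinoic acid, rose by 1.28 in Adipo alone.

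Genes of mitosis had the same direction. Of 30 genes of DNA replication and mitosis, 13 were more negative and 0 more positive (43.3% against 20.4% of all genes). The medians were 0.25 in Osteo and -0.50 in Adipo. Scaled to the same sum, 7 were more negative. Cdc20, an activator of the anaphase-promoting complex, was at 13.5, 14.7 and 15.2 FPKM in WT_Osteo, 28.6, 26.3 and 28.5 in KO_Osteo, 16.0, 25.0 and 17.3 in WT_Adipo, and 11.0, 11.1 and 13.3 in KO_Adipo. The genotypes did not overlap, and Cdc20 rose by 0.90 and fell by 0.65. The kinases Plk1 and Aurka and the cyclin Ccnb1 also reversed, with differences of differences of -1.31, -1.25 and -1.26. Top2a fell in Adipo alone, by 0.78. The second WT_Adipo library had the highest median of this list, 0.40 above the WT_Osteo mean against -0.37 and -0.35 in the other 2, and without it 20 were more negative and 1 more positive.

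In Adipo alone, the NRF2 antioxidant genes were lower in KO. Of 19 tested, 15 were more negative and 0 more positive (78.9% against 20.4% of all genes). The median was 0.15 in Osteo and -1.33 in Adipo. Scaled to the same sum 14 were more negative, and without the second WT_Adipo library 18. Srxn1, which repairs oxidized peroxiredoxins, was at 58.2, 58.3 and 57.5 FPKM in WT_Osteo, 70.5, 71.7 and 68.8 in KO_Osteo, 165, 102 and 183 in WT_Adipo, and 35.2, 23.5 and 26.4 in KO_Adipo. It fell by 2.34 in Adipo and did not pass in Osteo (0.27), a difference of -2.61 (limma adjusted p 0.000214). The peroxiredoxin Prdx1 fell by 2.53, Gclm, a subunit of the enzyme that starts glutathione synthesis, by 2.14 and the thioredoxin reductase Txnrd1 by 1.77. NADPH enzymes of the list fell too, Pgd by 1.33 and G6pdx by 1.03, and Me1 reversed (0.52 and -0.32). Hmox1 and Slc7a11 fell in Adipo by 1.64 and 3.12 and did not pass the difference of differences with all libraries (limma adjusted p 0.0585 and 0.11). The list's median in the second WT_Adipo library was 0.16 above the WT_Osteo mean, against 0.67 and 0.72 in the other 2 and -0.44 to -0.95 in KO_Adipo.

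Myeloid genes led the remaining genes lower in KO in Adipo alone. Clec4n, the receptor dectin-2 for fungal mannans, was at 51.1, 50.1 and 50.4 FPKM in WT_Osteo, 121, 131 and 129 in KO_Osteo, 255, 57.3 and 264 in WT_Adipo, and 16.4, 6.43 and 6.52 in KO_Adipo. Its difference of differences was -5.31, the most negative of the genes named, and -6.02 without the second WT_Adipo library. Its genotypes were apart in Osteo too, by 1.31 (95% confidence interval 0.15 to 2.47), where it did not pass (limma adjusted p 0.162). The difference of differences was -3.64 for the receptor Treml4, -3.43 for the neutrophil collagenase Mmp8 and -3.36 for the endothelin receptor Ednrb. Ednrb was at 12.7, 6.94 and 15.0 FPKM in WT_Adipo and 0.712, 0.224 and 0.148 in KO_Adipo, against 3.39 to 4.83 in all Osteo libraries. Slpi, a protease inhibitor, was at 69.3, 2.67 and 81.8 FPKM in WT_Adipo and 0.809 to 1.81 in KO_Adipo, and its difference (-4.64, limma adjusted p 0.0339) passed in 9 of 21 alternative analyses. The genotypes of Treml4, Mmp8, Ednrb and Slpi were apart in Osteo too, higher in KO by 0.91, 0.60, 0.20 and 0.98. None of these passed in Osteo (limma adjusted p 0.344, 0.382, 0.691 and 0.602). Other genes lower in Adipo alone were Aif1, a marker of macrophages (-2.03), the complement regulator Cfp (-2.30), the prostacyclin receptor Ptgir (-1.64), the lysosomal lipase Lipa (-1.17) and Igfbp5, which binds insulin-like growth factors (-2.17). Lyz2 fell by 1.28 in Adipo, and its difference of differences passed in 9 of 21 alternative analyses.

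Counts of several inflammatory programs rested on the second WT_Adipo library, without which the share of all genes that passed also went from 20.4% to 42.2%, and that of genes more negative from 9.58% to 22.5%. Of 24 interferon-stimulated genes, 1 was more negative (Gbp2, -2.57) with all libraries and 24 without that library, when the median in Adipo went from -1.89 to -2.88. Isg15, a ubiquitin-like protein, was at 246, 7.14 and 169 FPKM in WT_Adipo and 16.1, 8.84 and 13.1 in KO_Adipo. For chemokines and their receptors, 1 of 22 was more positive and 5 more negative with all libraries, and 2 and 15 without it. For inflammatory cytokines the counts went from 0 and 4 of 19 (21.1% more negative, against 9.58% of all genes) to 0 and 12. For glycolysis and hypoxia genes they went from 1 and 0 to 1 and 20 of 25. The gene that stayed positive in the last list was Adm, a vasodilator peptide, which fell by 0.43 in Osteo and rose by 1.21 in Adipo. The KO_Adipo libraries were not uniform in these lists either. Relative to the WT_Osteo mean, the median of inflammatory cytokines was 0.98 in the first KO_Adipo library, -0.17 in the second and -0.19 in the third. In the same order it was 0.66, 0.01 and 0.11 for chemokines, and 0.42, -0.05 and 0.11 for interferon-stimulated genes. The neutrophil marker S100a8 was at 65.8 and 86.0 FPKM in the first and the third WT_Adipo library and between 1.22 and 6.01 in the others. The part of neutrophils or macrophages in these differences was not tested.

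**Figure D3:**
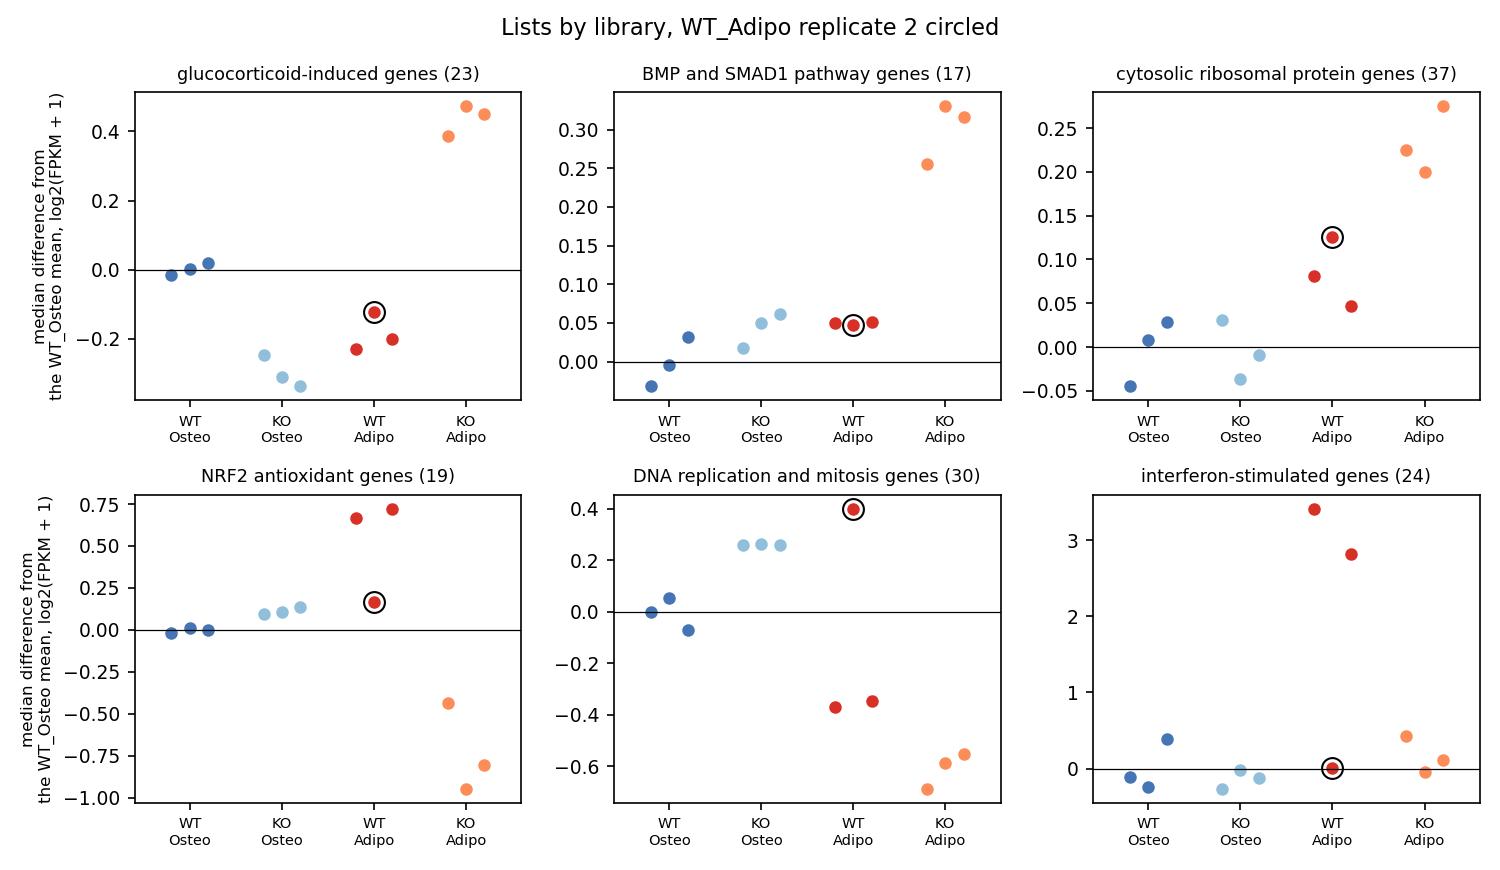
Median over the tested members of 6 lists of log2(FPKM + 1) minus the WT_Osteo mean, 1 point for each library, with the second WT_Adipo library circled. In interferon-stimulated genes that library is at 0.01 and the other 2 at 3.41 and 2.82, whereas in glucocorticoid-induced genes all 3 WT_Adipo libraries lie between -0.23 and -0.12 and all KO_Adipo libraries between 0.39 and 0.47.

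Genes higher in KO in Adipo alone were led by Mgp, an inhibitor of calcification in cartilage and vessels. It was at 55.7, 49.8 and 66.5 FPKM in WT_Osteo, 54.0, 46.3 and 46.2 in KO_Osteo, 13.8, 24.3 and 11.5 in WT_Adipo, and 89.9, 93.2 and 103 in KO_Adipo. The genotypes overlapped in Osteo and were apart in Adipo, where Mgp rose by 2.52. The small heat shock protein Cryab rose by 2.34, Cdo1, which breaks down cysteine, by 2.58 and Rgs1, which shortens G protein signals, by 1.47. In Osteo the libraries of Rgs1 were apart by -0.88 (95% confidence interval -1.51 to -0.25) and those of Mir763 by -1.28. Those of Cryab were apart by -0.29 and those of Cdo1 by 0.24, and none of these passed there. Mir763, a locus of 120 bases, was at 0, 0 and 2.06 FPKM in WT_Adipo and 3.55, 2.21 and 2.19 in KO_Adipo, and its short length leaves few fragments behind these values (limma adjusted p 0.0137 for the difference of differences). Of 20 bone matrix genes, 6 were more positive and 3 more negative (45.0% against 20.4% of all genes), and 9 and 7 without the second WT_Adipo library, with a median of 0.14 in Osteo and 0.44 in Adipo. The bone sialoprotein gene Ibsp rose by 1.26 in Adipo alone, osteomodulin (Omd) by 1.78 and the sphingomyelinase Smpd3 by 1.68.

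Collagens and Notch genes gave further examples. Of 17 collagen genes, 6 were more positive and 2 more negative (47.1% against 20.4% of all genes), and 6 and 4 without the second WT_Adipo library. In 4 of those that passed with all libraries the sign was the same in both media. The basement membrane collagen Col4a1 was at 76.9, 69.1 and 70.1 FPKM in WT_Osteo, 92.5, 83.6 and 88.0 in KO_Osteo, 90.5, 91.3 and 84.1 in WT_Adipo, and 167, 187 and 184 in KO_Adipo. It rose by 0.29 in Osteo and by 1.01 in Adipo, so the genotypes were apart in both media and the difference between the effects was 0.72 (limma adjusted p 0.000535). Col4a2 (0.25 and 0.95) and Col11a1 (0.49 and 1.20) behaved alike. Of 9 Notch genes, 3 were more positive and 1 more negative (44.4% against 20.4% of all genes), and 6 and 3 without the second WT_Adipo library. The receptors Notch3 and Notch4 rose in Adipo alone by 1.05 and 1.28, Notch1 fell by 0.68, and the coactivator Maml2 reversed (-0.30 and 0.47). The activin antagonist Fst rose by 1.40, the serine synthesis enzyme Phgdh by 1.23 and the insulin receptor substrate Irs2 by 0.95, each in Adipo alone. Of 37 ribosomal protein genes, 8 were more positive (21.6%, against 10.9% of all genes) and 0 more negative, and the median of their differences of differences was 0.15. In Adipo 16 of the 37 were higher in KO and 1 was lower, against 16.7% and 16.5% of all genes. When the second WT_Adipo library was left out, 14 were more positive and 1 more negative. With libraries scaled to the same sum, 5 of the 37 were more positive, and 1716 of all 12871 genes were. With a replicate block within medium 0 of the 37 passed, and 2176 of all genes did.

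Genes of Osteo alone were fewer than those of Adipo alone, 306 against 1745. Timp3, an inhibitor of metalloproteinases, was at 57.5, 53.3 and 55.7 FPKM in WT_Osteo, 143, 139 and 149 in KO_Osteo, 61.6, 132 and 61.0 in WT_Adipo, and 50.2, 61.7 and 55.8 in KO_Adipo. It rose by 1.36 in Osteo, and the difference of differences was -1.86 with and -1.49 without the second WT_Adipo library, whose level was near that of KO_Osteo. The retinoic acid carrier Crabp2 rose by 1.37, the Wnt antagonist Sfrp1 by 1.06 and nestin (Nes), a filament of progenitor cells, by 0.83. The Hoxa cluster genes Hoxa9, Hoxa10 and Hoxa11, which help pattern the limb, rose in Osteo alone by 0.35, 0.86 and 0.63. Hoxa10 passed the difference of differences in 4 of 21 alternative analyses, Hoxa11 in 12 and Hoxa9 in 16, and with libraries scaled to the same sum none of 10 Hox genes passed. Igkc, an immunoglobulin constant region, stayed below 2 FPKM in every library and passed in 11 of 21. Summed endothelial markers were higher in KO in both media. They were at 9.12 to 10.0 FPKM in KO_Osteo against 3.26 to 3.36 in WT_Osteo, and at 7.49 to 9.82 in KO_Adipo against 4.53 to 5.71 in WT_Adipo. Of the 8 summed markers, 4 stayed below 1 FPKM in every library, and Kdr was at 0.851 to 0.979 in KO_Osteo against 0.909 to 1.30 in WT_Osteo. Of 7 endothelial genes tested, 4 were higher in KO in Osteo (4.94% of all genes) and 4 in Adipo (16.7%), with 1 lower in Adipo. In the difference of differences 0 were more positive and 4 more negative (57.1% against 20.4% of all genes). The counts were 2 and 4 without the second WT_Adipo library, and 0 and 2 with libraries scaled to the same sum. Pecam1 rose by 0.80 in Osteo alone, although without the second WT_Adipo library it also fell in Adipo, by 0.36 (limma adjusted p 0.00308). The part of endothelial cells in the genes of Osteo alone was not tested.

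Among genes lower in KO in Osteo alone, 3 members of the Ms4a cluster of tetraspan membrane proteins on chromosome 19 stood together. Ms4a4a was at 214, 213 and 228 FPKM in WT_Osteo, 61.8, 70.2 and 66.7 in KO_Osteo, 185, 57.7 and 162 in WT_Adipo, and 201, 249 and 229 in KO_Adipo. It fell by 1.71 in Osteo. The second WT_Adipo library alone lay at the level of KO_Osteo, and without it the difference of differences went from 2.61 to 2.09. Without that library Ms4a4a, Ms4a6b and C77080 also passed in Adipo, higher in KO by 0.38, 0.30 and 0.59 (limma adjusted p 0.00671, 0.00593 and 0.000484), so that they were no longer genes of Osteo alone. Ms4a6b fell by 1.29 and Ms4a6c by 1.03, and the difference of differences of Ms4a6c passed in 10 of 21 alternative analyses. The members of this cluster are close paralogs, so fragments may have been divided between them. C77080 fell by 1.68 and Tnn, a tenascin of the bone and tendon matrix, by 1.10. Tnn was at 59.4 to 66.5 FPKM in WT_Adipo and 70.6 to 72.6 in KO_Adipo, with all 3 WT_Adipo libraries together.

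**Figure D4:**
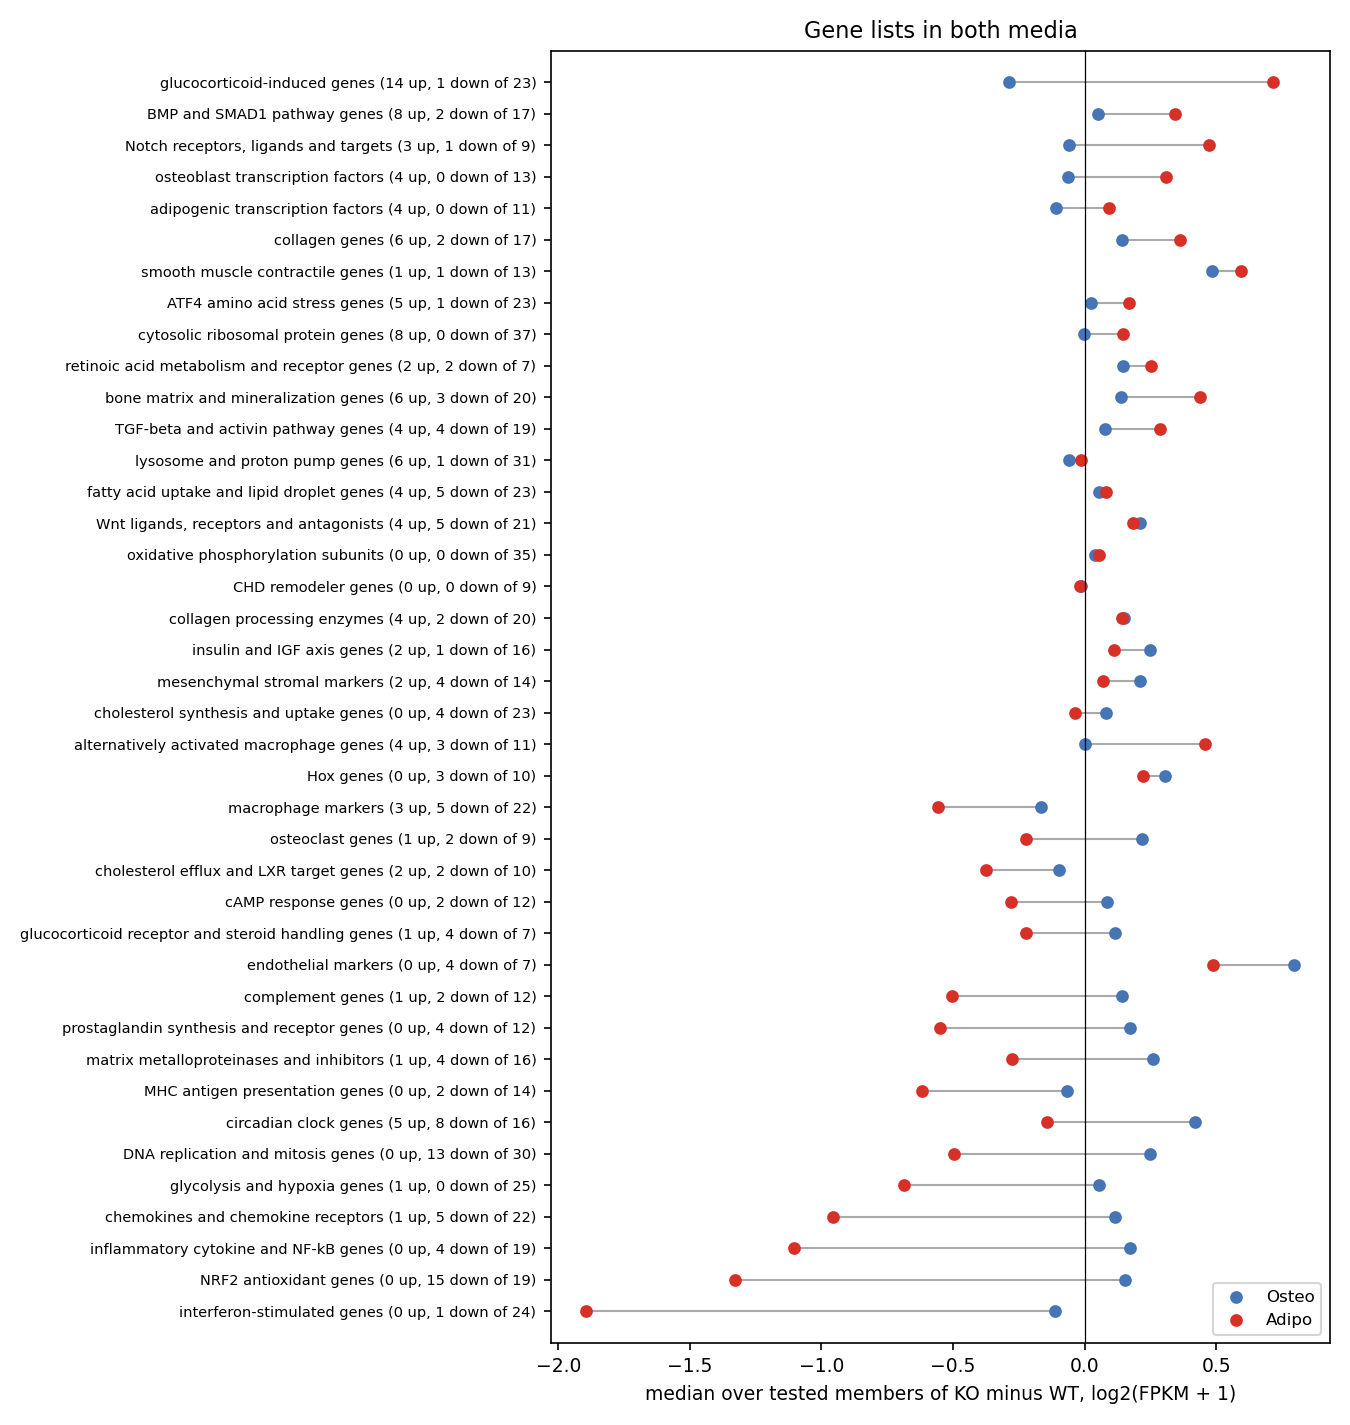
Median KO minus WT difference in Osteo and in Adipo, on log2(FPKM + 1), for each gene list, joined by a line. Glucocorticoid-induced genes go from -0.29 to 0.72, NRF2 antioxidant genes from 0.15 to -1.33 and mitosis genes from 0.25 to -0.50, and oxidative phosphorylation stays at 0.04 and 0.06.

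Few or no genes of some programs passed this test with all libraries. None of 35 subunits of oxidative phosphorylation passed by limma or by voom, with 3 at an unadjusted p under 0.05, and their medians were 0.04 in Osteo and 0.06 in Adipo. Without the second WT_Adipo library 2 were more positive and 2 more negative. None of 9 CHD remodeler genes passed by limma or by voom, with 2 at an unadjusted p under 0.05, and 2 were more negative without that library. Smooth muscle contractile genes were higher in KO in both media, 8 of 13 in Osteo and 11 of 13 in Adipo (4.94% and 16.7% of all genes). Their medians were 0.48 and 0.59. In the difference of differences 1 was more positive and 1 more negative (15.4% against 20.4% of all genes). Leaving out that library, 7 of the 13 were more positive and 1 more negative, and their median difference of differences went from 0.18 to 0.34. Of 23 genes of cholesterol synthesis and uptake, 0 were more positive and 4 more negative by limma (17.4% against 20.4% of all genes). Of these 4, Srebf2 (-0.17) changed sign when libraries were scaled to the same sum.

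**Figure D5:**
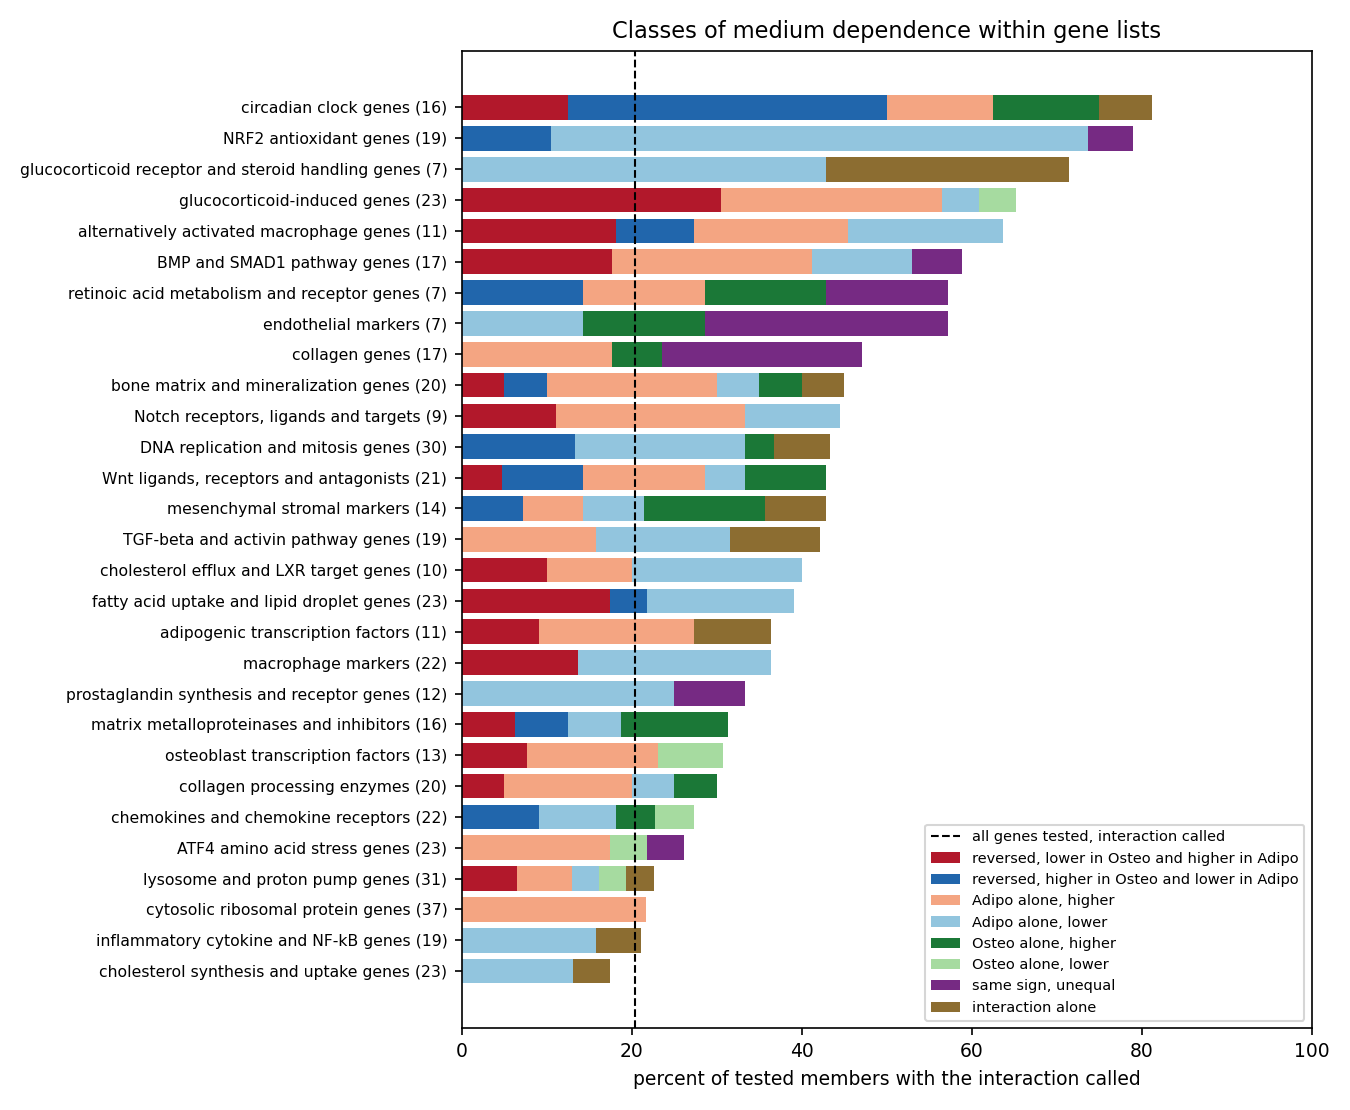
Percent of the tested members of each list in each class of genes that passed the difference of differences, stacked, on an axis from 0 to 100 percent. The clock list reaches 81.2 percent with 8 of 16 members reversed, the NRF2 list 78.9 percent mostly lower in Adipo alone, and the share over all genes is 20.4 percent.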

How the data were processed

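RNA was sequenced from 12 libraries, 3 in each of 4 groups named in the labels. The authors deposited FPKM per gene in 1 table with 12 columns. The study lists a NEBNext Ultra kit, an Illumina HiSeq, FastQC, the FASTX toolkit, HISAT2 and Ballgown, and the submitters' processing notes name Bowtie 0.12.2 and the build mm9. The annotation and the use of strand are not given in the sources used here. From the deposited FPKM and exonic lengths, the value of 1 fragment was estimated per library, and 98.2% to 98.4% of values came out as whole fragments within 0.02. Fragments copied by PCR are not independent molecules. Of 54532 identifiers, 54495 (99.9%) were given a symbol by GENCODE M21 (GRCm38). Genes whose reads overlap an antisense gene or a close copy are uncertain.

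Genes that reached 1 FPKM in 3 or more libraries entered the test in R 4.3.3 with limma 3.58.1 and a mean-variance trend on log2(FPKM + 1), with a mean for each group and no replicate block, since same-numbered libraries did not deviate together in every pair (correlations from -0.286 to 0.466). P-values were adjusted by the Benjamini-Hochberg method over all 12871 genes, at 0.05. The labels do not say that the libraries of a group came from separate animals or cultures, so p-values measure the spread between these libraries, which may be technical. In simulated data with 200 genes changed in the difference of differences over 12866 genes, 3 of 66 were recovered at a log2 change of 0.5, 39 of 67 at 1 and 60 of 67 at 2, and 7 unchanged genes were called. The simulation set 1 fixed spread for all genes and changed few of them. Its recovery therefore does not carry over to these data, where 20.4% passed.

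The members and the 42 gene lists were chosen with earlier results of these data known. Named were Chd7 and 5 genes for each class of reversed or 1-medium genes. These 5 had the largest difference of differences among genes whose libraries do not overlap where they passed, with predicted models left out. Also named were up to 5 called members per list, and further members of the clock, glucocorticoid-induced, adipogenic and osteoblast regulator lists. Named after their values were seen, to spell out a small count or an example, were Smad6, Smad7, Smad9, Id2, C1qb, Pnpla2, Cd36, Me1, Pgd, G6pdx, Hmox1, Slc7a11, Isg15, S100a8, Cep85, Gm6093 and Gm807. The cell type markers Itgb1, Thy1, Pdgfrb and Kdr were named for their levels alone. Lists are described by counts and medians, with no test of a list, and 1 called member of the BMP list is counted but its result is not reported here. Alternatives were median ratio scaling, the same sum of FPKM, a pseudocount of 0.1, no filter, no trend, replicate blocks, voom on the recovered fragments, and leaving out each library. A promoter motif search in Python 3.11.15 used RefSeq windows on GRCm38.p6.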

Additional observations from a re-analysis of the deposited data

Results flagged for a closer look

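The KO minus WT difference itself differed between the media, by the test of the difference of differences (limma, adjusted p under the threshold over 12871 genes), for 2630 genes. The 30 named by class are given here with their values on log2(FPKM + 1). Among genes lower in KO in Osteo and higher in KO in Adipo these were Fkbp5 (5.00), Tsc22d3 (3.93), Klhl6 (3.38), Sult1a1 (3.22) and Zbtb16 (3.19). Among those of the opposite pattern they were Nqo1 (-4.36), Mmp12 (-3.71), Cxcl14 (-2.89), Dbp (-2.77) and Clec7a (-2.46).

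Genes called in Adipo and not in Osteo were Mgp (2.74), Cryab (2.64), Mir763 (2.59), Rgs1 (2.35) and Cdo1 (2.34) on the higher side and Clec4n (-5.31), Slpi (-4.64), Treml4 (-3.64), Mmp8 (-3.43) and Ednrb (-3.36) on the lower side. Genes called in Osteo and not in Adipo were Timp3 (-1.86), Crabp2 (-1.71), Sfrp1 (-1.25), Nes (-1.22) and Igkc (-1.17), higher in KO in Osteo, and Ms4a4a (2.61), Ms4a6b (2.02), C77080 (1.85), Ms4a6c (1.42) and Tnn (1.27), lower in KO in Osteo.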

How the results depend on the processing

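Over the analyses that left out 1 library each, genes more positive in Adipo numbered 943 to 2539 and genes more negative 837 to 2895, and the highest values were those without that library (at most 1385 and 1152 without any other). Reversed genes numbered 82 to 427 (lower in Osteo) and 73 to 453 (higher in Osteo). Leaving out any Osteo library gave 82 to 92 and 73 to 83. Genes of Adipo alone ranged from 608 to 1475 (higher) and from 508 to 1839 (lower), and the lowest values came without the third KO_Adipo library. Genes of Osteo alone ranged from 74 to 266 (higher) and from 67 to 279 (lower), genes with the same sign from 12 to 423 and genes that passed the difference of differences alone from 161 to 272, each of these with its lowest value without an Osteo library and its highest without the second WT_Adipo library. For Chd7 the difference of differences ranged from 0.21 to 0.34. A group with 1 library left out is assumed to vary like the others.

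With libraries scaled to the same sum of FPKM, 564 genes were more negative, 100 and 54 reversed, 339 were lower in Adipo alone, 71 and 74 were higher and lower in Osteo alone, 14 had the same sign, and Chd7 passed (0.42). Srebf2 changed sign under this scaling, to 0.0193 (limma adjusted p 0.911; its adjusted p ranged over the alternatives from 0.00912 to 0.911). Without a filter on low values 18 genes had the same sign. Scaling by median ratios, no trend, a pseudocount of 0.1 and voom kept every count within 1.5 times, apart from those named. For 243 genes other than Chd7, those named and the called members of the lists, 4399 of 5103 values under the alternatives kept their direction and side of the threshold, 680 no longer passed, 23 passed newly and 1 reversed. The simulated data, with 200 changed genes and a fixed spread, gave few calls for a log2 change of 0.5. In the data the median size among the genes that passed was 0.55.

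Libraries share replicate numbers across groups. Correlations of the deviations from the group means between same-numbered libraries of a medium were -0.0375, 0.0576 and -0.0295 in Osteo and 0.466, 0.397 and -0.286 in Adipo. Within a genotype they ran from -0.0558 to 0.0859. Such correlations cannot show whether equal numbers mark the same animal or culture, which the labels do not say. Of the 12 libraries not every one correlated best with its own number. With a replicate block within medium, 96 genes reversed from higher in Osteo to lower in Adipo, 97 were lower in Osteo alone and 21 had the same sign, and 2176 passed in all, with 0 of 37 ribosomal protein genes. With a replicate block within genotype, 918 genes were more positive and 804 more negative, and the effect in each medium cannot be estimated. A replicate block over all libraries gave 1309 and 1164.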
